A study of Mus musculus with 9 samples.

Results

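The genes described here are 10 genes of inflammatory signalling in mouse colon: the cytokine genes Tnf, Il1b, Il6, Il33 and Tgfb1, the cytokine antagonist gene Il1rn, and the NF-kB pathway genes Birc3, Tnfaip3, Nfkbia and Nfkb2. They were taken by symbol, and each of the 10 matched a single row among the 54491 rows of the deposited expression table. Colon RNA of C57BL/6 mice was sequenced at postnatal day 98, and the mice had entered the study at 6 weeks of age. The control group (replicates 1, 2 and 3) received no treatment that the labels name. The HFD group (replicates 1, 2 and 4) received a high-fat diet. The group called HFD with bacterium (replicates 1, 3 and 4) received the high-fat diet and Papillibacter cinnamivorans, a gut bacterium, given by gavage (through a tube into the stomach). The study assigned 45 mice to the 3 groups, 15 to each, and 3 libraries of each group were analysed. The labels name gavage for the bacterium group alone, so effects of the bacterium and of being gavaged cannot be told apart. Whether the libraries are of separate mice is not stated, so p-values measure the spread between libraries.

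NF-kB is a family of transcription factors that inhibitory IkB proteins hold in the cytoplasm. Signals from receptors for TNF, interleukin-1 or microbial products activate kinases that lead to the destruction of IkB, and the freed factors switch on genes in the nucleus. Some of those genes encode cytokines that spread the signal, and others encode proteins that shut it off. Nfkbia encodes IkB-alpha, the classic feedback inhibitor. Tnfaip3 encodes A20, a ubiquitin-editing enzyme that dampens signalling from TNF and Toll-like receptors. Birc3 encodes cIAP2, a ubiquitin ligase at the TNF receptor complex. Nfkb2 encodes p100, which is both an IkB-like inhibitor and the precursor of the p52 subunit. In the gut this pathway works in epithelial cells and in the immune cells beneath them.

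Promoters lie around the start of a gene and can hold NF-kB binding motifs, so the stretch before the start is shown for the 4 NF-kB pathway genes. Each is the 250 bases before the annotated start (the first of the annotated starts where there are several) in RefSeq, build GRCm38.p6, on the strand of the gene. All 10 genes had entries, with 16 windows in all. The authors' build is GRCm39, so these positions do not apply to their files. Capitals mark every match to the NF-kB consensus, a motif of 10 bases searched on both strands, and overlapping matches run together. The windows are chr10:19015411-19015660 (minus strand) for Tnfaip3, chr12:55492648-55492897 (minus) for Nfkbia, chr19:46304487-46304736 (plus) for Nfkb2 and chr9:7873171-7873420 (minus) for Birc3.
Tnfaip3: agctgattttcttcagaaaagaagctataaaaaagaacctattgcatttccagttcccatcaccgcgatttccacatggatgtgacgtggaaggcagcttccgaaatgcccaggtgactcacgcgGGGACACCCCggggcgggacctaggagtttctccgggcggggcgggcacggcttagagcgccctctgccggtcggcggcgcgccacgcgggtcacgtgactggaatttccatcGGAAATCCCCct
Nfkbia: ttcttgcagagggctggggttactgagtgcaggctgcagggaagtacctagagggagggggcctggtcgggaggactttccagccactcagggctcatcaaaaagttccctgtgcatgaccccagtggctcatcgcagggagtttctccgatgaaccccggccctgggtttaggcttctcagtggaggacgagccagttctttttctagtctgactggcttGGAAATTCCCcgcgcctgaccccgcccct
Nfkb2: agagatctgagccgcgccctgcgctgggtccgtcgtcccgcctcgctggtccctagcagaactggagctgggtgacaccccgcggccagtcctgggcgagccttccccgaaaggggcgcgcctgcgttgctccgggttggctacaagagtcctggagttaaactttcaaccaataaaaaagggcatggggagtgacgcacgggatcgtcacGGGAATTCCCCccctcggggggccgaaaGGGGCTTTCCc
Birc3: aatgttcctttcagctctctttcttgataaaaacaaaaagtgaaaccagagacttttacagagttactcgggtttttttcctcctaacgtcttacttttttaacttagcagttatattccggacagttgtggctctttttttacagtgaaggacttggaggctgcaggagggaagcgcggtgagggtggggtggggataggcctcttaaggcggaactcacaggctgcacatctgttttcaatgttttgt
Tnfaip3 held 2 matches, at 125 to 116 and at 12 to 3 bases before the start. Nfkbia held 1 match, at 29 to 20 bases before the start. Nfkb2 held 3 at its first start, of which 2 overlap between 39 and 29 bases before it and the third lies 11 to 2 bases before it. Birc3 held none. Each of the other 2 Nfkb2 starts held 1 match. Il6 also held 1, at 44 to 35 bases before its start. No window of Tnf, Il1b, Il1rn, Il33 or Tgfb1 held a match, nor did the second window of Tnfaip3. Among all 32851 windows of this length, 3.90% held at least 1 match, and the looser pattern GGGNNNNNCC was in 45.8%. A match is a run of letters and not a measured binding site.

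Values are FPKM, fragments scaled by the exonic length of the gene and by a factor for each library. That length took the exons of all transcripts of a gene together, so a gene whose main transcript is shorter has an understated level. Levels of different genes can therefore be set side by side only roughly. The factor for each library did not follow the assigned total of the library, as described under processing. Whole fragment counts could be worked back from the values, and they gave between 14848249 and 17350899 fragments assigned to genes in a library. Epithelial and goblet cell markers were present in every library. The first principal component of all tested genes (49.9% of the variance) separated the 3 HFD libraries, at 59.6 to 62.7, from the rest, at -39.6 to -12.6. The second set control replicate 1 (62.9) apart from the other 8 (-20.9 to 6.43). Control replicate 1 also carried a summed level of 7 smooth muscle markers of 6699 FPKM, against 1272 to 3112 FPKM in the other 8 libraries. Leaving it out changed 1 call among the 10 genes, that of Nfkb2 given below.

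**Figure D1:**
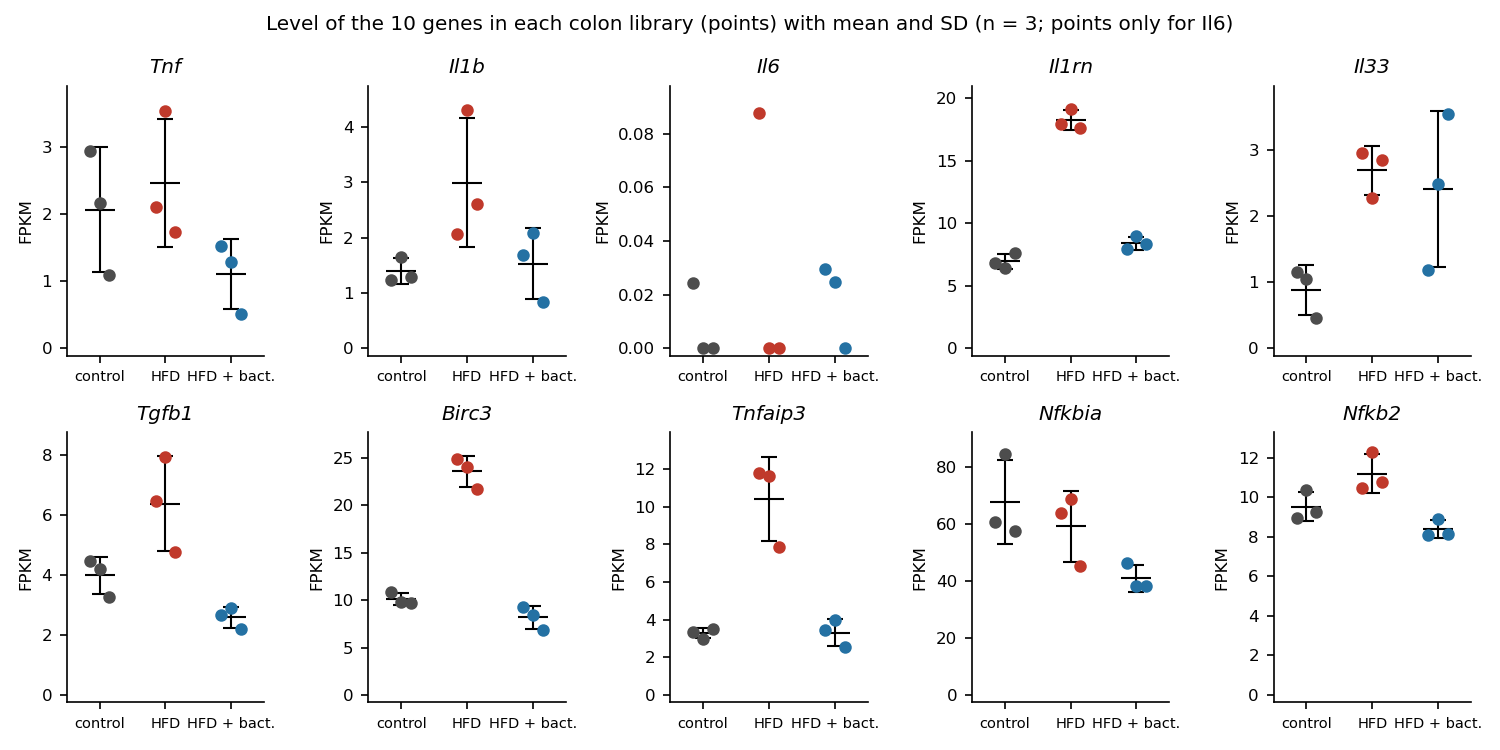
Level in FPKM (vertical axis, linear, from near 0) of each of the 10 genes in the 3 control, 3 HFD and 3 HFD with bacterium libraries; points are libraries, and the bars are the mean and SD except for Il6, which has points alone. Il1rn, Birc3 and Tnfaip3 stand higher in the HFD libraries than in every other library, while Tnf and Nfkbia overlap between control and HFD.

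The cytokine ligands were at low levels. Tnf, which encodes the cytokine that gave the TNF pathway its name, measured 2.94, 2.17 and 1.09 FPKM in control replicates 1, 2 and 3. It measured 2.11, 3.54 and 1.74 FPKM in HFD replicates 1, 2 and 4, and 1.53, 1.28 and 0.521 FPKM in replicates 1, 3 and 4 of HFD with bacterium. Control and HFD overlapped, and the bacterium libraries all lay below the HFD libraries but overlapped control. These levels rest on 15 to 104 fragments a library. The difference of HFD from control was 0.19 on the log2(FPKM + 1) scale (95% confidence interval -0.48 to 0.86, limma adjusted p = 0.69). Bacterium against HFD gave -0.71 (interval -1.38 to -0.05, limma adjusted p = 0.16), which did not pass the threshold of 0.05.

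Il1b encodes interleukin-1 beta, a cytokine made mostly by activated myeloid cells. It measured 1.23, 1.66 and 1.28 FPKM in the control libraries, 2.07, 4.30 and 2.61 FPKM with HFD, and 1.69, 2.08 and 0.835 FPKM in HFD with bacterium. Every HFD library was above every control library, and the bacterium libraries overlapped both groups. HFD exceeded control by 0.70 log2 units (SE 0.24, interval 0.15 to 1.26), with a limma adjusted p of 0.075. With the bacterium the difference from HFD was -0.65 (SE 0.24, interval -1.20 to -0.10, limma adjusted p = 0.13). Il1b was thus not called in either comparison. It was called higher in HFD when the values were rescaled to the same sum in every library (1.11, limma adjusted p = 0.034), and after removal of mitochondrial and immunoglobulin genes and rescaling (0.93, limma adjusted p = 0.031).

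Il6, the gene of interleukin-6, was near the limit of detection. Its 9 libraries held 7 fragments in all: 1, 0 and 0 in control, 4, 0 and 0 in HFD, and 1, 1 and 0 in HFD with bacterium. The group totals of 1, 4 and 2 fragments have exact Poisson 95% intervals of 0.0253 to 5.57, 1.09 to 10.2 and 0.242 to 7.22, which overlap and cover counting error only. A count of 0 allows up to 3 fragments, or 0.0689 to 0.0816 FPKM in the libraries that held none. Il6 did not pass the filter of 0.5 FPKM in 3 libraries and was not tested, so no difference was detectable at this depth.

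Il33 encodes an alarmin, a cytokine held in the nucleus of epithelial and stromal cells and released on damage. In control it was at 1.16, 1.05 and 0.458 FPKM, and in HFD at 2.96, 2.28 and 2.85 FPKM. With the bacterium it measured 1.19, 2.50 and 3.55 FPKM, so replicate 1 lay near control and the other 2 among or above the HFD libraries. HFD was 3.03-fold control in mean FPKM, with a log2 difference of 0.98 (SE 0.26, limma adjusted p = 0.032). This call was lost without control replicate 2 (1.05, limma adjusted p = 0.063) or 3 (0.81, 0.086), and without HFD replicate 1 (0.93, 0.10), 2 (1.07, 0.067) or 4 (0.95, 0.11). It was also lost without the filter on low values (limma adjusted p = 0.070). Il33 in control rested on 20 to 57 fragments a library. Bacterium against HFD gave -0.17 (interval -0.77 to 0.43, limma adjusted p = 0.72).

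Tgfb1 encodes transforming growth factor beta 1, which restrains inflammation and drives matrix production. It measured 4.48, 4.20 and 3.28 FPKM in the control libraries, 6.46, 7.93 and 4.76 FPKM with HFD, and 2.65, 2.90 and 2.21 FPKM in HFD with bacterium. The 3 groups did not overlap, with the bacterium group lowest and HFD highest. Tgfb1 fell by 1.02 log2 units with the bacterium against HFD (SE 0.18, limma adjusted p = 0.0069), from 6.38 ± 1.59 to 2.59 ± 0.350 FPKM (SD, n = 3). HFD exceeded control by 0.55 (SE 0.18, interval 0.15 to 0.96), with a limma adjusted p of 0.061. That second difference passed without HFD replicate 4 (0.72, limma adjusted p = 0.037) and under the same rescalings as Il1b (0.87 and 0.78, limma adjusted p = 0.025 and 0.026).

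Il1rn, the gene of the interleukin-1 receptor antagonist, encodes a protein that occupies the interleukin-1 receptor without signalling. It measured 6.84, 6.46 and 7.64 FPKM in the control libraries, 17.9, 19.1 and 17.6 FPKM with HFD, and 7.91, 8.98 and 8.32 FPKM in HFD with bacterium. The HFD libraries stood far above all others, and the bacterium libraries were slightly above control without overlap. Il1rn rose 2.61-fold in HFD, from 6.98 ± 0.601 to 18.2 ± 0.795 FPKM (1.27 log2 units, SE 0.11, limma adjusted p = 0.00016). It was 2.17-fold lower with the bacterium than in HFD, at 8.40 ± 0.538 FPKM (-1.03 log2 units, SE 0.11, limma adjusted p = 0.00052).

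The antagonist was compared with the ligand it competes with, as the log2 ratio of Il1rn to Il1b in each library (0.1 added to each FPKM). The ratio was 2.38, 1.90 and 2.49 in control, 3.05, 2.13 and 2.71 in HFD, and 2.16, 2.06 and 3.17 in HFD with bacterium. In every library Il1rn exceeded Il1b, by 3.89-fold to 9.95-fold in FPKM, a size that depends on the exonic length used for each gene. The groups overlapped: the HFD mean exceeded the control mean by 0.38 (exact two-sided permutation p = 0.4), and the other 2 comparisons gave -0.17 (bacterium against HFD, exact p = 0.9) and 0.21 (bacterium against control, exact p = 0.8). With 3 libraries against 3 the smallest p this test can give is 0.1. The ratio depended on the value added. With 1 added to each FPKM, the HFD libraries (1.93 to 2.62) no longer overlapped control (1.49 to 1.92), by a margin of less than 0.01, and the mean difference was 0.57 (exact two-sided permutation p = 0.1). Bacterium against HFD was then -0.38 (exact p = 0.2).

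The NF-kB pathway genes divided into a pair that differed strongly between groups and a pair that did not pass the test. Birc3 measured 10.8, 9.83 and 9.68 FPKM in the control libraries, 24.9, 24.0 and 21.7 FPKM with HFD, and 9.27, 8.43 and 6.85 FPKM in HFD with bacterium. The lowest HFD library was above the highest of the other groups, and the bacterium libraries lay below control without overlap. Birc3 rose 2.33-fold in HFD, from 10.1 ± 0.637 to 23.5 ± 1.62 FPKM (1.14 log2 units, SE 0.13, limma adjusted p = 0.00062). With the bacterium it was 2.88-fold lower than in HFD, at 8.18 ± 1.23 FPKM (-1.42 log2 units, SE 0.13, limma adjusted p = 0.00026).

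Tnfaip3 measured 3.32, 2.99 and 3.53 FPKM in the control libraries, 11.8, 11.6 and 7.85 FPKM with HFD, and 3.44, 3.96 and 2.55 FPKM in HFD with bacterium. HFD replicate 4 was lower than the other 2 HFD libraries but still above all control and bacterium libraries, which overlapped each other. Tnfaip3 rose 3.18-fold in HFD, from 3.28 ± 0.274 to 10.4 ± 2.23 FPKM (1.40 log2 units, SE 0.18, limma adjusted p = 0.0012). With the bacterium it was 3.14-fold lower, at 3.32 ± 0.713 FPKM (-1.40 log2 units, SE 0.18, limma adjusted p = 0.0015).

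Nfkbia had the highest level of the 10 genes in each group. It measured 61.0, 84.6 and 57.7 FPKM in the control libraries, 63.9, 68.9 and 45.2 FPKM with HFD, and 46.5, 38.2 and 38.4 FPKM in HFD with bacterium. Control and HFD overlapped, and only replicate 1 of the bacterium group reached the lowest HFD library. HFD against control gave -0.19 (SE 0.20, interval -0.65 to 0.27, limma adjusted p = 0.55), and this turned to 0.08 and 0.05 under the rescalings named for Il1b. Bacterium against HFD gave -0.50 (SE 0.20, interval -0.97 to -0.04, limma adjusted p = 0.15), which passed when libraries were rescaled to the same sum (-0.71, limma adjusted p = 0.036).

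Nfkb2 measured 8.97, 10.4 and 9.25 FPKM in the control libraries, 10.5, 12.3 and 10.8 FPKM with HFD, and 8.10, 8.90 and 8.14 FPKM in HFD with bacterium. The HFD libraries were above all the others, by a small margin over control replicate 2. HFD exceeded control by 0.21 (SE 0.11, interval -0.04 to 0.46, limma adjusted p = 0.21). Under the rescalings named for Il1b this was 0.49 and 0.44 and passed (limma adjusted p = 0.038 and 0.028). Bacterium against HFD gave -0.38 (SE 0.11, interval -0.62 to -0.13, limma adjusted p = 0.059). It passed without control replicate 1 (-0.38, limma adjusted p = 0.034), with the 6 libraries of these groups alone (0.046) and when rescaled to the same sum (-0.60, 0.025).

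**Figure D2:**
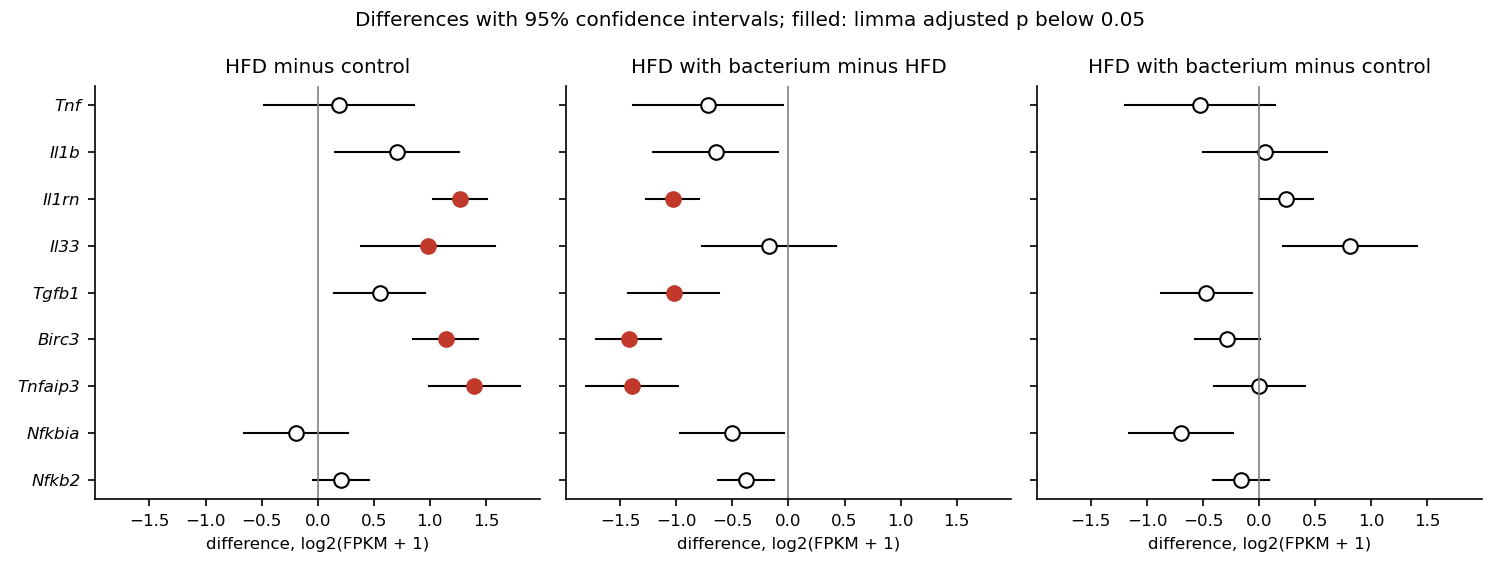
Difference between group means (horizontal axis, log2(FPKM + 1)) for the 9 tested genes in the 3 comparisons, with 95% confidence intervals; filled circles have a limma adjusted p below 0.05. In HFD minus control 4 genes are filled on the higher side, in HFD with bacterium minus HFD 4 are filled on the lower side, and in HFD with bacterium minus control none is filled.

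Counted together, 4 of the 9 tested genes were called higher in HFD than in control (Tnfaip3, Il1rn, Birc3 and Il33) and 0 lower. Over all 17907 tested genes, 19.7% were called in this comparison, 10.6% higher and 9.11% lower. The median log2 difference of the 9 genes was 0.70, against -0.00 for all tested genes. With libraries rescaled to the same sum, 7 of the 9 were called higher. The median of all genes then moved to 0.24, and the share of calls that were higher went from 53.8% to 78.2%. After removal of mitochondrial and immunoglobulin genes the count was also 7, the median of all genes 0.18 and the share 76.3%. The share of all tested genes called higher under these rescalings is not given, so no conclusion is drawn from either count of 7.

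In HFD with bacterium against HFD, 4 of the 9 were called lower (Birc3, Tnfaip3, Il1rn and Tgfb1) and 0 higher. Over all tested genes 12.1% were called, 4.54% higher and 7.6% lower. The median of the 9 genes was -0.71 and that of all genes -0.01. With libraries rescaled to the same sum the median of all genes was -0.20, 6 of the 9 were called lower, and the share of all calls that were higher went from 37.4% to 25.3%. The share of all tested genes called lower under this rescaling is not given, so no conclusion is drawn from the count of 6. This comparison uses the same HFD libraries as the one above, so opposite signs in the 2 comparisons are not independent.

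In HFD with bacterium against control, 0 of the 9 genes were called by limma on log2(FPKM + 1), and 0 by limma voom on the recovered fragments. At an unadjusted p below 0.05 there were 3 (Il33, Nfkbia and Tgfb1), and 4 with voom. Of all tested genes, 20.4% had an unadjusted limma p at or below the 0.052 of Il1rn. The count of 3 is to be set against roughly that share. At an adjusted p below 0.05, 1.11% of all tested genes were called, 0.262% higher and 0.843% lower. After removal of mitochondrial and immunoglobulin genes 76.9% of all calls were higher in place of 23.7%, with a median of all genes of 0.15. The median of the 9 genes was -0.16 and that of all genes -0.01. Il33 was 0.81 log2 units above control (SE 0.26, interval 0.21 to 1.41, limma adjusted p = 0.14), the largest positive value of the 9. Nfkbia was at -0.69 (interval -1.16 to -0.23, limma adjusted p = 0.12) and Tgfb1 at -0.47 (interval -0.88 to -0.06, limma adjusted p = 0.20). Tnfaip3, at 0.00 (interval -0.41 to 0.41, limma adjusted p = 0.998), and Il1b, at 0.05 (interval -0.50 to 0.61, limma adjusted p = 0.93), had intervals that still allow changes of 0.4 log2 units and more. For Birc3 (-0.28, interval -0.57 to 0.01), Il1rn (0.24, interval -0.00 to 0.48), Nfkb2 (-0.16, interval -0.41 to 0.08) and Tnf (-0.52, interval -1.19 to 0.14) the limma adjusted p lay between 0.25 and 0.46.

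The order of levels shifted between groups. In control it ran from Nfkbia (67.8 ± 14.7 FPKM) through Birc3, Nfkb2, Il1rn, Tgfb1, Tnfaip3, Tnf, Il1b and Il33 to Il6. Of these neighbours, Birc3 and Nfkb2, Tgfb1 and Tnfaip3, and Tnf and Il1b overlapped in their libraries. In HFD, Il1rn passed Nfkb2, and Tnf (2.46 ± 0.948 FPKM) lay below Il1b (2.99 ± 1.16) and Il33 (2.70 ± 0.364), with these neighbours overlapping. Also in HFD, Nfkb2 overlapped Tnfaip3, and Tnfaip3 overlapped Tgfb1. In HFD with bacterium, Il1rn, Nfkb2 and Birc3 lay together between 8.18 and 8.40 FPKM, and Tnfaip3, Tgfb1, Il33, Il1b and Tnf formed a run in which each overlapped the next. Nfkbia was highest and Il6 lowest in all 3 groups.

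Other genes of the pathway were counted by role. Of 24 further cytokine ligand genes, 14 passed the filter, and 7 were higher in HFD than in control and 0 lower (median 0.67). Il18, which encodes a cytokine of the interleukin-1 family that epithelial cells make, measured 17.5, 14.7 and 19.7 FPKM in the control libraries, 83.8, 67.9 and 90.2 FPKM with HFD, and 13.1, 11.9 and 10.4 FPKM with the bacterium. It rose from 17.3 ± 2.51 to 80.6 ± 11.5 FPKM in HFD (log2 difference 2.16, limma adjusted p = 8.5e-05). It was at 11.8 ± 1.37 FPKM with the bacterium (log2 difference from HFD -2.67, limma adjusted p = 3.8e-05). Ltb, the gene of lymphotoxin beta, rose from 2.93 ± 0.977 to 10.3 ± 1.22 FPKM. Tnfsf11, the gene of RANK ligand, was at 0.283 ± 0.0154 FPKM in control and 1.73 ± 0.219 FPKM with HFD, and it passed the filter mainly through the HFD libraries. Lta, the gene of lymphotoxin alpha, named here after its values were seen, reached 0.5 FPKM in the HFD libraries alone (0.287 ± 0.0958 FPKM in control, 1.51 ± 0.372 FPKM with HFD and 0.303 ± 0.265 FPKM with the bacterium). Both could only come out higher in HFD, and both are among the 7, so the count of 7 of 14 supports nothing. With the bacterium 6 of the 14 ligand genes were lower than in HFD and 0 higher, against 7.6% and 4.54% of all tested genes. Among the 6 were Ltb, at 3.75 ± 0.854 FPKM, and again Tnfsf11 and Lta. Without HFD replicate 1, 2 or 4 the 6 became 4, 4 and 3.

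Of 14 receptor genes, 4 were higher in HFD than in control and 3 lower, against 10.6% and 9.11% of all tested genes. Cd40, a receptor of antigen-presenting cells, rose from 0.687 ± 0.0518 FPKM to between 1.93 and 2.05 FPKM, and Tgfbr2, a receptor for TGF-beta, from 11.2 ± 1.12 to 20.5 ± 0.885 FPKM. Ltbr, the lymphotoxin beta receptor, fell from 50.9 ± 3.16 to 35.2 ± 2.03 FPKM, a call that was lost under 7 of 20 alternatives (limma adjusted p up to 0.20). Without control replicate 2 or HFD replicate 1, 2 or 4 the counts were 2 higher and 0 lower, and Ltbr was not called. Tgfbr2 was not called without HFD replicate 4 (limma adjusted p = 0.051). With libraries rescaled to the same sum the counts were 7 higher and 0 lower, again without the share of all tested genes. With the bacterium 3 were lower than in HFD and 0 higher, against 7.6% and 4.54% of all tested genes. The 3 were Cd40, at 0.794 ± 0.277 FPKM, and the TNF-family receptors Tnfrsf11a and Tnfrsf1b. The 3 became 1 without HFD replicate 2 or without replicate 1 or 4 of the bacterium group, and 2 without HFD replicate 1 or 4. Tnfrsf11a lost its call under 5 of the 20 alternatives and Tnfrsf1b under 4.

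Of 21 genes of signalling adaptors and kinases, 1 was higher and 1 lower in HFD. This is a smaller share than the 19.7% of all tested genes called in either direction. Irak1, a kinase of the interleukin-1 receptor pathway, rose by 0.42 log2 units (limma adjusted p = 0.023), and the related Irak2 fell by 0.71 (limma adjusted p = 0.0067). The call of Irak1 was lost without control replicate 2 or 3 and without HFD replicate 1, 2 or 4 (limma adjusted p = 0.084, 0.059, 0.067, 0.072 and 0.10), while that of Irak2 held under all 20 alternatives. With the bacterium 1 was lower than in HFD, the TNF receptor adaptor gene Tradd, which fell by 0.64 (limma adjusted p = 0.033). That call was lost under 7 of 20 alternatives (limma adjusted p up to 0.13), among them leaving out control replicate 2, any HFD library, or replicate 3 or 4 of the bacterium group. The other 4 NF-kB subunit genes gave 0 calls by limma or by voom in any of the 3 comparisons. At an unadjusted p below 0.05 limma gave 0, 0 and 1 for HFD against control, bacterium against HFD and bacterium against control. In the last of these, 20.4% of all tested genes had an unadjusted limma p at or below 0.052. Without control replicate 1, Rel was called lower in bacterium against control (-0.71, limma adjusted p = 0.036, against -0.41 and 0.40 with it). For HFD against control their log2 differences were 0.12 for Nfkb1, -0.12 for Rela, 0.04 for Relb and -0.06 for Rel. For bacterium against HFD they were -0.16, -0.22, -0.24 and -0.35 in the same order. With libraries rescaled to the same sum the median of these 4 genes moved from -0.01 to 0.25 in HFD against control, where all genes moved to 0.24.

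Of 16 further IkB and feedback inhibitor genes, 2 were higher and 1 lower in HFD. This is near the 19.7% of all tested genes called in either direction, so the count does not set the list apart. Nfkbie, which encodes IkB-epsilon, rose from 1.97 ± 0.221 to 5.66 ± 0.750 FPKM (log2 difference 1.16, limma adjusted p = 0.00043). Tnip3, whose protein binds A20, rose from 0.935 ± 0.533 to 6.30 ± 0.486 FPKM (1.95, limma adjusted p = 0.0018). Tollip, the gene of an inhibitor of interleukin-1 and Toll-like receptor signalling, fell from 18.0 ± 1.97 to 10.8 ± 0.654 FPKM. With the bacterium 4 were lower than in HFD and 0 higher, against 7.6% and 4.54% of all tested genes. Among the 4 were Nfkbie (2.49 ± 0.114 FPKM), Tnip3 (1.11 ± 0.811 FPKM) and Bcl3, an atypical IkB gene (9.76 ± 1.96 against 18.2 ± 3.22 FPKM). The 4 became 2 without HFD replicate 1 or 2 or without replicate 1 or 4 of the bacterium group, where Bcl3 was not called (limma adjusted p = 0.069, 0.098, 0.071 and 0.079).

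Of 16 other genes that NF-kB is known to switch on, 14 were tested. In HFD against control 5 were higher and 1 was lower, against 10.6% and 9.11% of all tested genes. Ccl20, a chemokine gene of epithelium, rose from 0.852 ± 0.465 to 7.75 ± 0.428 FPKM, Vcam1, an adhesion molecule gene, from 1.55 ± 0.202 to 5.67 ± 0.206 FPKM, and Cd83, a dendritic cell gene, from 3.88 ± 1.54 to 10.6 ± 0.775 FPKM. With the bacterium 5 were lower than in HFD and 0 higher, against 7.6% and 4.54% of all tested genes. Ccl20 was then at 1.48 ± 0.756, Vcam1 at 2.14 ± 0.236 and Cd83 at 3.95 ± 1.19 FPKM. Without HFD replicate 1 or 2 the 5 higher genes became 3 and 3, and the 5 lower genes 3 and 2, with Cd83 not called without HFD replicate 2 in the second comparison (limma adjusted p = 0.052). In HFD with bacterium against control 1 gene of the 6 lists was called, Bcl2l1, a survival gene of the BCL2 family, which fell from 12.1 ± 0.773 to 6.44 ± 0.925 FPKM (limma adjusted p = 0.037). Its call was lost under 12 of 20 alternatives (limma adjusted p up to 0.26), among them leaving out control replicate 2 or 3, HFD replicate 1 or 2, or replicate 1 or 4 of the bacterium group. Without control replicate 1 that comparison gave 3 lower calls in this list, and without HFD replicate 4 it gave 2. In HFD against control the list counts without control replicate 1 were 8 ligand genes higher and 0 lower, 3 and 3 receptor genes, 2 and 3 adaptor genes, 3 and 1 feedback genes, and 5 and 2 other targets.

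**Figure D3:**
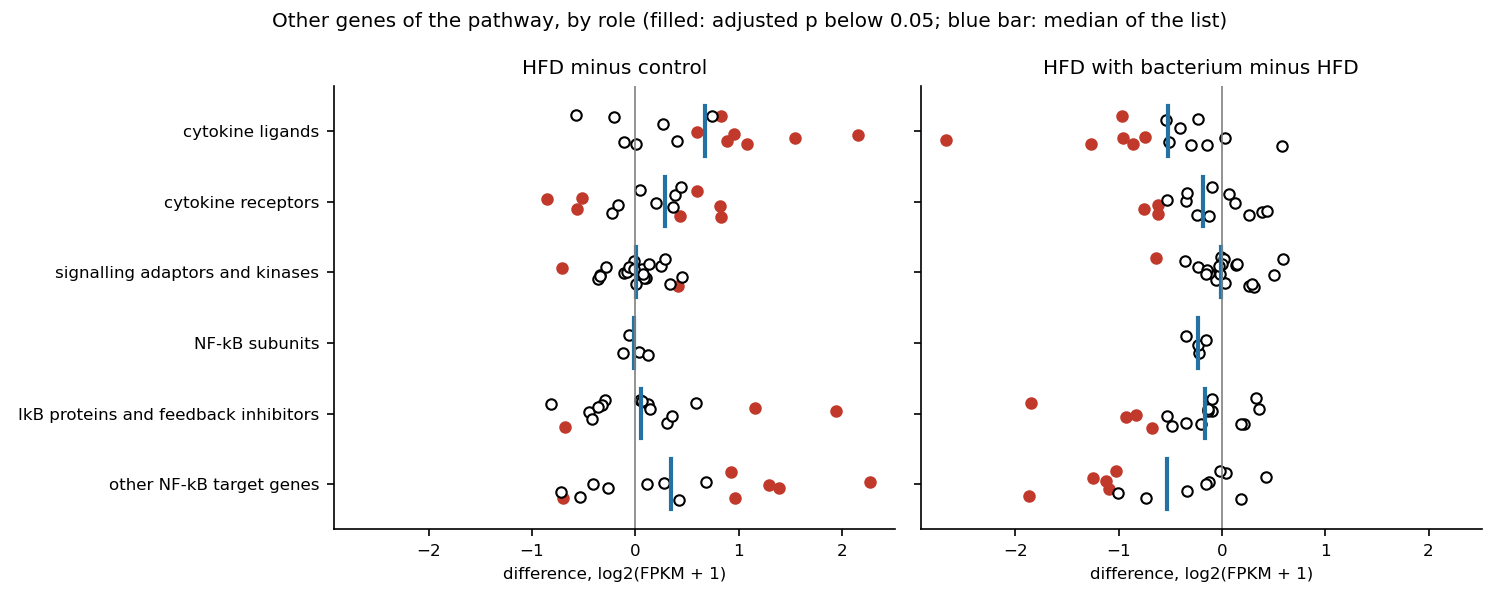
Difference between group means (horizontal axis, log2(FPKM + 1)) for the tested genes of 6 lists of the pathway, with the 10 genes themselves left out; each circle is a gene, filled circles have a limma adjusted p below 0.05, and the blue bar is the median of the list. The ligand list has 7 filled genes on the higher side in HFD minus control, and the 4 NF-kB subunit genes lie between -0.12 and 0.12 with none filled.

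Cell type markers moved with these genes. The summed level of 12 macrophage and dendritic cell markers was 390 to 586 FPKM in the control libraries, 1180 to 1515 FPKM in HFD and 439 to 723 FPKM with the bacterium. Cd74 made up most of that sum in every library (326 ± 103, 912 ± 178 and 369 ± 141 FPKM), so the sum mainly follows this gene. Of the 12 markers, 11 were called higher in HFD and 10 lower with the bacterium than in HFD. Of 8 B and plasma cell markers 7 were called higher in HFD and 6 lower with the bacterium. Their sums were 168 to 246, 973 to 1222 and 257 to 504 FPKM, mostly from Jchain (143 ± 44.7, 890 ± 118 and 309 ± 107 FPKM). Ms4a1 (0.429 ± 0.328, 8.12 ± 0.510 and 0.437 ± 0.158 FPKM) and Mzb1 (0.0827 ± 0.0999, 0.904 ± 0.320 and 0.539 ± 0.520 FPKM) passed the filter mainly through the HFD libraries. They could hardly come out lower there, so no support is drawn from these B and plasma cell counts. T and NK cell markers summed to 26.6 to 60.8, 74.0 to 86.9 and 51.6 to 65.8 FPKM, and 6 of 9 tested were higher in HFD and 4 lower with the bacterium. The 6 neutrophil markers summed to 0.586 to 1.16, 1.88 to 3.71 and 0.396 to 2.37 FPKM, and 4 of them did not pass the filter. Of the 7 fibroblast markers 1 was higher in HFD, with sums of 123 to 289, 288 to 298 and 211 to 285 FPKM, and of the 8 epithelial markers 2 were lower, with sums of 4345 to 8143, 4086 to 4904 and 3974 to 5061 FPKM. Mast cell markers summed to 12.1 to 19.0, 23.1 to 32.5 and 14.6 to 19.3 FPKM, with 1 of 4 tested higher in HFD and 1 lower with the bacterium. Both calls were of Cma1 (0.141 ± 0.245, 12.3 ± 2.67 and 0.0706 ± 0.0794 FPKM). Cma1 reached 0.5 FPKM in the HFD libraries alone and could only come out higher there, so these calls support nothing. Kit, of the same list, went the other way (10.9 ± 5.67, 6.28 ± 0.594 and 12.6 ± 0.677 FPKM) and was not called. The 8 markers of enteric neurons and glia summed to 36.1 to 95.3, 23.3 to 27.3 and 43.8 to 87.4 FPKM, with 2 lower in HFD and 3 higher with the bacterium. Endothelial markers (6) summed to 37.5 to 51.3, 45.9 to 52.5 and 21.6 to 39.7 FPKM, with 1 lower with the bacterium. Adipocyte markers (6) summed to 38.7 to 562, 5.96 to 68.2 and 55.8 to 172 FPKM, with 1 lower in HFD. Smooth muscle markers (7) summed to 1283 to 6699, 1272 to 1428 and 1732 to 3112 FPKM, with 0 called in any comparison. Goblet cell markers (6) summed to 1309 to 2365, 2415 to 2802 and 1577 to 2645 FPKM, with 1 higher and 2 lower in HFD, and 2 higher and 2 lower with the bacterium. Immune sums thus stood apart in HFD, except that of neutrophils, which overlapped the bacterium group. No marker of these lists was at 0 in every library. The part of these cells in the differences of the 10 genes was not tested. In RNA from whole tissue, fewer cells of a type and less RNA per cell cannot be told apart.

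Genes that mark position along the gut differed between the groups too. The labels do not give the stretch of colon that was taken. Hox genes are expressed in an order along the body axis, and 8 posterior Hox genes summed to 281 to 301 FPKM in HFD, 11.4 to 71.9 FPKM in control and 26.1 to 33.9 FPKM with the bacterium. Hoxb13 (127 ± 8.03 FPKM) and Hoxd13 (84.3 ± 10.9 FPKM) made up most of the HFD sum. Of the 8, Hoxa11 alone had its lowest mean in HFD (1.81 ± 0.163 FPKM, against 5.93 ± 5.30 in control and 3.44 ± 0.508 with the bacterium). For 7 anterior Hox genes the sums were 4.64 to 5.51 FPKM in HFD, 25.6 to 131 FPKM in control and 62.8 to 100.2 FPKM with the bacterium. The HFD libraries did not overlap the others in either sum. For HFD against control, diet and the position that these genes mark cannot be told apart. For HFD with bacterium against HFD, both groups had the diet, and the bacterium or gavage and that position cannot be told apart.

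**Figure D4:**
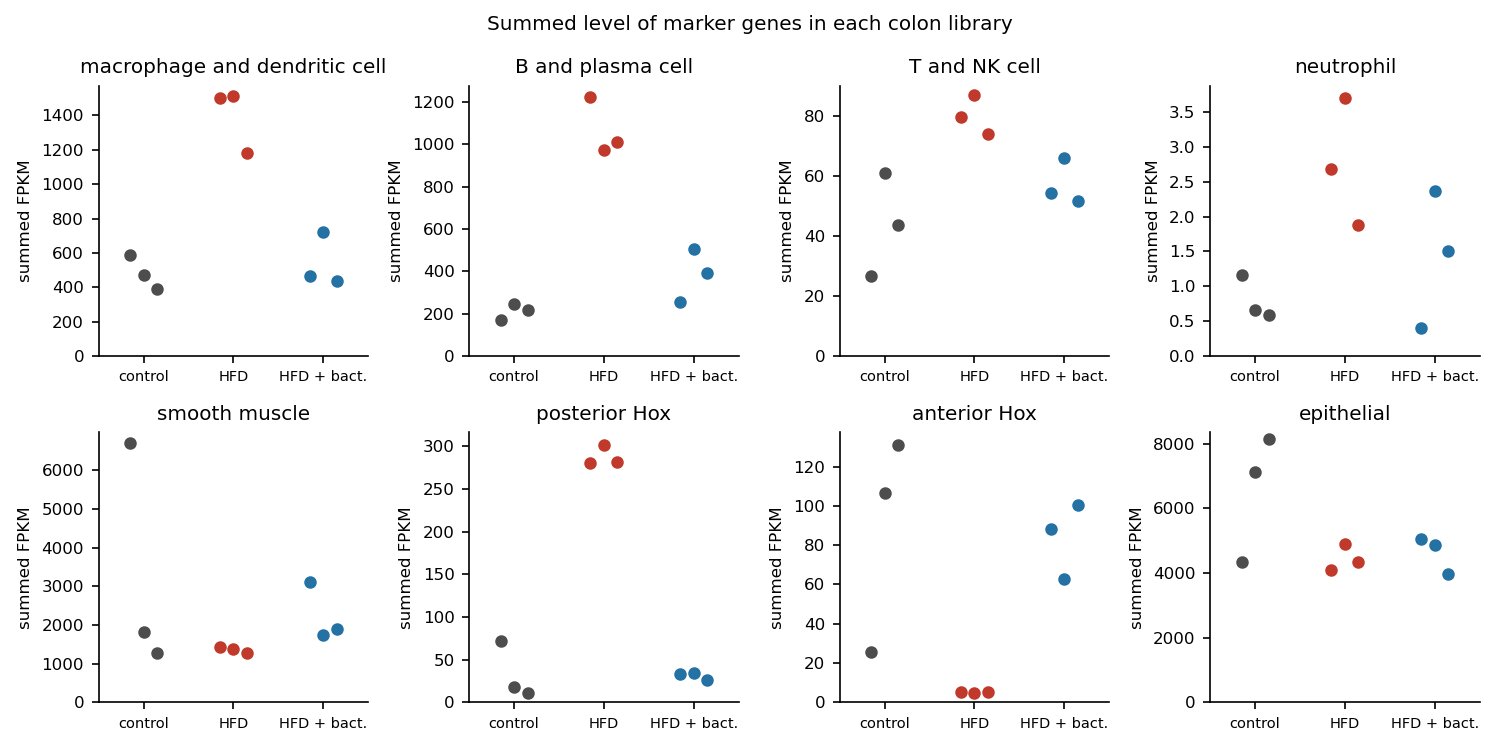
Summed FPKM (vertical axis, linear, from 0) of marker genes for 6 cell types and of posterior and anterior Hox genes in each library; points are libraries. The HFD libraries are highest for macrophage, B and plasma cell, T and NK cell and posterior Hox sums and lowest for the anterior Hox sum, and control replicate 1 is highest for smooth muscle.

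For each tested gene, the genes with the most similar pattern were found by Pearson's r of log2(FPKM + 1) over the 9 libraries. This is a description, in which the libraries share the separation of the HFD group. Il1rn was closest to the claudin gene Cldn8 (r = 0.995) and to Myo5c (0.994), and Birc3 to Prkd2 (0.987) and Il18 (0.982). Tnfaip3 had an r of 0.984 with Tlr9. Tgfb1 was closest to H2-T22 (0.988) and Chd7 (0.969), and Il33 to Dab2 (0.982) and Atr (0.968). Nfkb2 was closest to Phf14 (0.964) and Ebna1bp2 (0.962), and Nfkbia to Sbds (0.972) and Crlf2 (0.950). Il1b was closest to Cyp2r1 (0.949) and Slamf9 (0.948), and Tnf to Rnf41 (0.941) and Bbs4 (0.930). The number of tested genes with r above 0.9 was 642 for Il1rn, 491 for Tnfaip3 and 443 for Birc3, the genes with the strongest separation of HFD, against 7 to 86 for the others.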

How the data were processed

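RNA-seq of 9 colon libraries, 3 per group, was analysed. The authors deposited 1 table of FPKM values. The submitters' processing notes name HISAT2 2.0.5 and the build GRCm39. Not given in the sources used here are the counting tool, its strand setting and the gene annotation. All 9 value columns were matched to samples by name. Whole fragments were recovered from the deposited FPKM for 100% of rows, within 0.001 fragments of a whole number (0.01 for the highest genes). The scale followed median-of-ratios size factors (gap -0.0157% to 0.243%) rather than assigned totals (gap -6.72% to 13.4%), which differed by up to 1.17-fold.

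The filter kept 17907 genes that reached 0.5 FPKM in 3 or more libraries. They were tested with limma 3.58.1 (R 4.3.3) on log2(FPKM + 1), with a variance trend and all 9 libraries in 1 fit without covariates. This scale understates changes of low genes. P-values were Benjamini-Hochberg adjusted over all tested genes and called below 0.05. The fit was also run on simulated data, with an outcome that is not given here and from which nothing is concluded. All 10 genes are described, with the 3 called genes of smallest p per list and comparison, all subunit genes, and for each tested gene the 2 most correlated genes (no unnamed models, pseudogenes, or immunoglobulin or T cell receptor segments). 1 of these is not reported here. The alternatives were 19 other settings and limma voom on the recovered fragments, which was chosen after seeing the data. The genes and lists were chosen with earlier results of these data known. Promoter windows came from RefSeq.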

Additional observations from a re-analysis of the deposited data

How the results depend on the processing

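Under 20 alternatives the 9 tested genes in 3 comparisons gave 540 values, of which 506 kept direction and side of the threshold, 11 gained a call, 7 lost one and 16 changed sign. Some alternatives leave the difference itself unchanged and can alter only its p-value. These are the other filters, the fit without a trend, the fit of the compared groups alone, and leaving out a library of the group not compared. The count of 506 thus includes values that could not change sign. The 7 lost calls were all of Il33 in HFD against control. The calls of Tnfaip3, Il1rn and Birc3 in HFD against control and of these and Tgfb1 in bacterium against HFD held in all 20. Library numbers are shared between groups, but no label pairs them and same-numbered libraries did not deviate together (correlations -0.16 to 0.19). With the replicate number as a block, 1985, 1288 and 0 genes were called in HFD against control, bacterium against HFD and bacterium against control, in place of 3535, 2174 and 198, and Il33 had 0.82 (limma adjusted p = 0.14), while no other call among the 10 genes changed.

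Without a library in turn, called genes ranged from 1612 to 4527, from 991 to 3603 and from 0 to 1187 in the same order. The highest of each came without control replicate 1. The lowest came without HFD replicate 4, without HFD replicate 1, and without any of 5 libraries. The number called among the 9 genes ranged from 3 to 4, from 4 to 5 and stayed at 0. The Il1rn to Il1b ratio difference ranged from 0.17 to 0.63, from -0.52 to 0.0430 and from -0.14 to 0.41. In HFD against control 7 of the 9 genes were called with libraries rescaled to the same sum, and 7 with mitochondrial and immunoglobulin genes removed. As above, no conclusion is drawn from these counts. In bacterium against control the genes called were 15 without a filter, 309 with a filter on the mean, 6 with libraries rescaled to the same sum, 46 with quantile normalization, 416 after removal of mitochondrial and immunoglobulin genes and 2 with only these groups.

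Signs changed for values near 0, none of them called. Nfkbia in HFD against control was 0.0823 with libraries rescaled to the same sum and 0.0454 after the removal. Tnf there was -0.0638 without control replicate 3 and -0.0219 without HFD replicate 2, within a range of -0.06 to 0.39 over the libraries left out in turn. Il33 in bacterium against HFD was 0.11 without replicate 1 of the bacterium group (range -0.41 to 0.11). In bacterium against control, Tnfaip3 was -0.00286 with a pseudocount of 0.1, -0.000657 with 0.5, -0.0198 with quantile normalization, -0.0101 with voom, and -0.05, -0.03 and -0.11 without control replicate 2 or bacterium replicates 1 or 3 (range -0.11 to 0.13). Il1b was -0.00224 with quantile normalization and -0.00494 and -0.10 without bacterium replicates 1 or 3 (range -0.10 to 0.27), and Nfkb2 was 0.0356 after the removal. The causes were not tested. Depth limits Il6, Tnf, Il33 and Il1b, with 0 to 180 fragments a library.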
